A study of Mus musculus with 21 samples.

Results

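The 43 genes described here build ribosomes in the nucleolus or drive cell growth, and they were chosen by name: the transcription factor Myc, proteins of the nucleolus, subunits of RNA polymerase I, assembly factors of both ribosomal subunits, and enzymes of growth metabolism. All 43 had a probe set annotated to them alone, out of 18194 genes measured in that way, and each gene was read by its probe set of highest mean log2 intensity over all 21 arrays. The arrays measured RNA from mouse bone marrow cells of C57/BL6 background, sorted by surface markers. LSK cells, which are lineage-negative, Sca-1-positive and Kit-positive, contain blood stem cells and their multipotent offspring. Granulocyte-macrophage progenitors (GMP) are committed to the myeloid lineage. Every mouse carried Mx-Cre, a Cre recombinase that interferon or the injected RNA analog pIpC switches on in blood and in other interferon-responsive cells. The LSK-Control (6 arrays) and GMP-Control (5 arrays) groups had the genotype Dot1 wt/wt x Mx-Cre. The LSK-Dot (6 arrays) and GMP-Dot (4 arrays) groups came from Dot1l fl/fl x Mx-Cre mice, in which pIpC deletes both alleles of Dot1l, the gene of the histone H3 lysine methyltransferase DOT1L. All 4 groups therefore share the transgene, and the series design describes the injection of both genotypes. The labels give no ages. Each array carries a K number, which is not said to stand for an animal of its own, and p-values measure only the spread between these arrays, which may be technical.

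Ribosome production starts in the nucleolus, where RNA polymerase I transcribes the long precursor of the ribosomal RNAs. Small nucleolar ribonucleoproteins (snoRNPs) modify this precursor, the box C/D class by methylation and the box H/ACA class by pseudouridylation, and a large set of assembly factors cuts it and folds it with ribosomal proteins into the small and the large subunit. MYC binds the promoters of many of these genes, often at the sequence CACGTG, called an E-box, and is known as a driver of ribosome production in growing progenitors.

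Promoter windows from RefSeq (build GRCm38.p6, 250 bases before to 50 bases after each transcription start) matched 35 members by symbol, leaving out Myc, Fbl, Npm1, Tcof1, Rrp12, Bop1, Rrs1 and Srm. The motif CACGTG, which reads the same on both strands, occurred in the window of 8 of these 35 members (22.9%), against 10.2% of 14453 genes on the array that have a window and 7.15% of all 32851 windows. No member had more than 1 match in a window. The matches and the bases around them are shown with the motif in capitals, 5′ to 3′ on the gene's own strand, because they are the letters that MYC is known to recognise:
Nop2: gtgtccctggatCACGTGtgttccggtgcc
Pes1: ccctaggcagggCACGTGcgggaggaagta
Wdr43: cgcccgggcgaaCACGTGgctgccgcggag
Tsr1: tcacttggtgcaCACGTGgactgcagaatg
Ltv1: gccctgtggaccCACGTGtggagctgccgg
Grwd1: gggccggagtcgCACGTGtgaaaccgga
Utp20: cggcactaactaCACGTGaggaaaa
Mybbp1a: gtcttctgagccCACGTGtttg

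The coordinates that follow are those of the whole printed stretch, and the distances those of the first base of the motif. The Nop2 stretch is chr6:125131811-125131840 on the plus strand, and its motif begins 60 bases before the start. In the other 7 the motif begins after the start, inside the transcribed part: Pes1 at base 3 (stretch chr11:3963965-3963994, plus strand), Wdr43 at base 18 (chr17:71616220-71616249, plus), Tsr1 at base 25 (chr11:74898092-74898121, plus), Ltv1 at base 29 (chr10:13193092-13193121, minus), Grwd1 at base 35 (chr7:45830740-45830767, minus), Utp20 at base 38 (chr10:88826765-88826789, minus) and Mybbp1a at base 41 (chr11:72441355-72441376, plus). The last 3 stretches are shorter because the window ends there. Of 1479 array genes with the motif in their window, 1262 had a match before the start and 221 had one after it. These are descriptions of the letters, and binding was not measured. In GMP-Dot against GMP-Control the median log2 fold change was 0.64 over the 8 members with the motif, with 6 of them higher, and 0.46 over the 27 matched members without it, with 20 higher. In LSK the medians were 0.16 and 0.14. They had the other order for GMP-Dot minus LSK-Dot, at -0.21 with 3 of 8 higher and 0.25 with 19 of 27 higher, and for GMP-Control minus LSK-Control, at -0.68 and -0.23. The slopes on Myc and on the upper quartile, described further on, had medians of 0.46 and 2.17 with the motif and of 1.16 and 2.19 without it. None of these differences was tested.

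These are bright genes. All 43 lay above the median gene, whose mean log2 intensity was 5.54, and 24 were in the top 10% of genes. Npm1 was the brightest, with a mean log2 intensity of 13.79, and Polr1b the dimmest, with 6.09. Among arrays of the deleted groups, a few stood apart. LSK-Dot K1272 correlated with the rest of its group over all probe sets at a mean Spearman coefficient of 0.684. Its upper quartile (75th percentile of log2 intensity over all probe sets) was 6.18, where the other 5 LSK-Dot arrays lay between 6.70 and 6.78. GMP-Dot K1190 and K1272 were close to each other, differing at the median probe set by 0.198 on the log2 scale (Spearman coefficient 0.982). The next closest GMP-Dot pair differed by 0.377. The Dot1l probe set did not separate the genotypes, with a log2 level of 6.48 ± 0.30 (SD, n = 6) in LSK-Control and 6.38 ± 0.35 (n = 6) in LSK-Dot, and of 6.74 ± 0.16 (n = 5) in GMP-Control and 6.22 ± 0.42 (n = 4) in GMP-Dot. Limma gave adjusted p-values of 0.985 and 0.34 for Dot1l, and since the labels do not place this probe set inside or outside the deleted exons, its level checks no label.

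RNA levels of LSK and GMP marker genes also differed within the LSK-Dot group. The mean log2 level of 9 measured GMP markers, among them Mpo, Elane and Prtn3, which encode proteins of neutrophil granules, was 10.45, 10.29, 10.01 and 10.08 on LSK-Dot K1091, K1190, K1421 and K1422, against 7.80 to 9.43 on the LSK-Control arrays, 7.27 on K1359 and 8.15 on K1272. The mean of 8 LSK markers, among them Kit, Ly6a and Hlf, was 8.28 to 8.89 in LSK-Control, 8.78 on LSK-Dot K1359, 6.30 to 7.75 on the 4 arrays named first, and 5.17 on K1272. Thus 5 of 6 LSK-Dot arrays had LSK markers below every LSK-Control array. The mean of 10 mature neutrophil markers was 7.09 to 11.28 in LSK-Control and 5.49 to 7.31 in LSK-Dot, with 10 of 10 lower at a median difference of -2.21, 8 of them at an unadjusted p under 0.05 and 0 past the adjusted p. Immediate early genes had 9 of 12 lower, with means of 5.04 to 8.10 and 5.09 to 6.54. The part of these in the members' levels was not tested. The GMP arrays of both genotypes had GMP markers at 10.98 to 11.94.

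**Figure D1:**
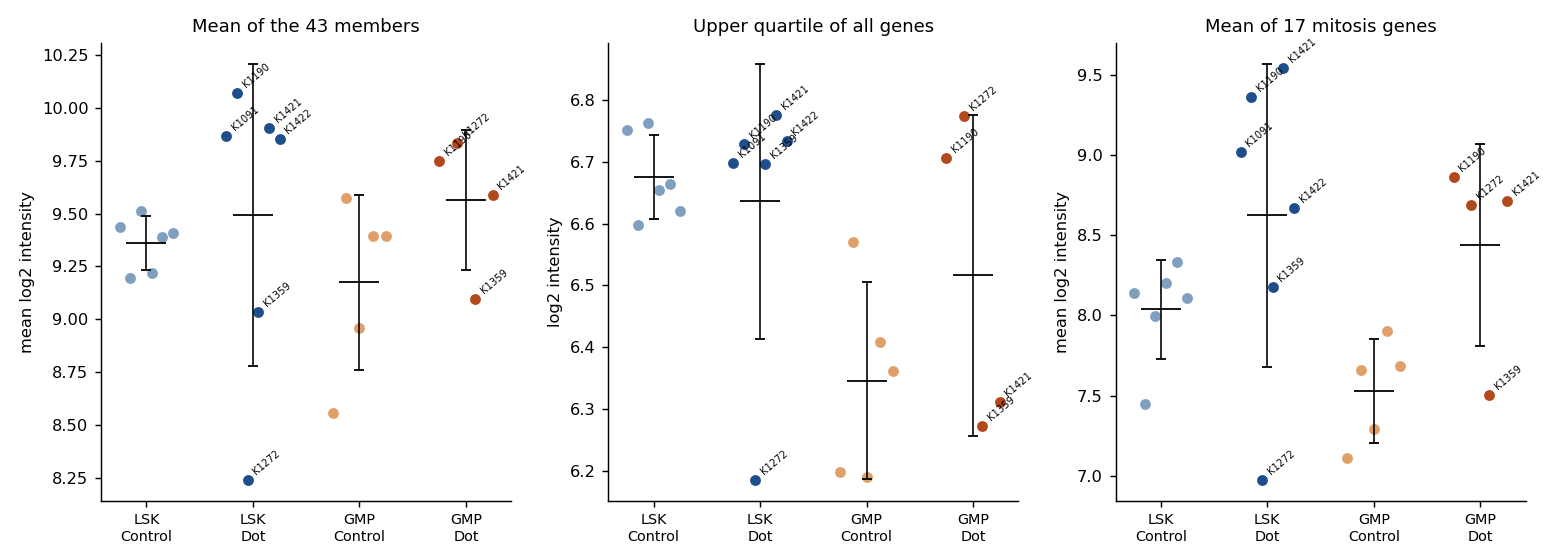
Each point is 1 array, the long dash is the group mean and the bar its SD, and the deleted arrays are labelled with their K number. The panels show the mean log2 intensity of the 43 members, the upper quartile over all probe sets (titled all genes), and the mean log2 intensity of 17 measured mitosis genes. LSK-Dot K1272 is lowest in all 3 panels, and K1091, K1190, K1421 and K1422 lie above every LSK-Control array in the first and the third.

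In LSK cells the members split the Dot1l-deleted arrays rather than the genotypes. Their mean log2 intensity was 9.20 to 9.51 on the LSK-Control arrays. It was 9.87 on LSK-Dot K1091, 10.07 on K1190, 9.90 on K1421 and 9.85 on K1422, but 9.04 on K1359 and 8.24 on K1272. So 4 deleted arrays lay above every control and 2 below every control. K1190 had 23 of 43 members above all LSK-Control arrays and 1 below, K1421 had 18 and 1, K1091 had 15 and 1, and K1422 had 15 and 0. K1359 had 1 above and 12 below, and K1272 had 5 above and 29 below. The 5 on K1272 were Grwd1, Nhp2, Ppan, Rrp9 and Srm, named after their values were seen. Each LSK-Control array, set against the other LSK-Control arrays, had 0 to 12 members above them all and 0 to 16 below. Control K1602 had 6 above and 12 below, and control K1604 had 6 and 16. The share of all genes outside the control range was not computed.

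Mitosis genes followed this split except on LSK-Dot K1359, which lay inside the LSK-Control range. The mean of 17 measured mitosis genes was 7.45 to 8.33 in LSK-Control, 9.02, 9.36, 9.54 and 8.67 on K1091, K1190, K1421 and K1422, 8.18 on K1359 and 6.97 on K1272. The GMP markers are also highest on those 4 arrays. The part of either in the members' levels was not tested. In bulk RNA from sorted cells, a change in the mix of cells and a change per cell cannot be told apart.

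Tested over all genes with limma, 0 of 43 members passed an adjusted p of 0.05 for LSK-Dot against LSK-Control, where 0.0% of all genes did. Of the members, 27 were higher, with a median log2 fold change of 0.13 against 0.06 over all genes. At an unadjusted p under 0.05 there were 3 members, all higher, where 5.61% of all genes were at that level and 3.13% as higher. No member had groups that did not overlap (0.33% of all genes had). Without K1272 the median was 0.34, with 38 of 43 higher, against -0.03 over all genes, and again 0 passed, as did 0.0% of all genes. Without K1190 the median was -0.01. With array weights estimated gene by gene, where LSK-Dot K1272 had a weight of 0.07, the median was 0.39 with 40 of 43 higher. In that weighted fit 0 members passed, where 2.45% of all genes did.

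Nhp2, a core protein of the box H/ACA snoRNP, had the smallest p. Its log2 level had a lowest, median and highest value of 9.31, 10.004 and 10.28 in LSK-Control and of 9.39, 10.97 and 12.56 in LSK-Dot. The highest value belonged to K1272 and the lowest to K1359. The log2 fold change was 1.0 ± 0.41 (SE), with 5 of 6 deleted arrays above the control mean and a limma adjusted p of 0.788. Rrp12, an export and maturation factor of pre-ribosomes, had 4.96, 5.91 and 6.51 in LSK-Control and 6.13, 6.47 and 7.15 in LSK-Dot. All 6 deleted arrays lay above the control mean, but the groups overlapped, and the difference of 0.77 ± 0.35 had an adjusted p of 0.881. Srm, the spermidine synthase, had 7.18, 7.78 and 8.94 in LSK-Control and 6.83, 9.06 and 10.83 in LSK-Dot. Its difference was 1.16 ± 0.55, with an adjusted p of 0.887, and again K1272 was highest and K1359 lowest.

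Myc itself was not higher in the deleted LSK cells. The lowest, median and highest log2 levels were 11.61, 11.72 and 11.87 in LSK-Control and 10.40, 11.40 and 11.96 in LSK-Dot. All deleted arrays but K1422 lay below every control. The difference was -0.39 ± 0.21, with a limma adjusted p of 0.973. On K1091, K1190 and K1421, where 15 to 23 members lay above every control, Myc was at 11.40, 11.40 and 11.52.

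In 2 of 3 well-known nucleolar proteins, 1 array set the sign of the LSK difference. Ncl (nucleolin), which binds the ribosomal RNA precursor, had 12.35, 13.13 and 13.52 in LSK-Control and 11.15, 13.21 and 13.42 in LSK-Dot. Its difference was -0.19 ± 0.33 (adjusted p = 0.985, limma), and without K1272 it was 0.15. Npm1 (nucleophosmin), a chaperone of histones and ribosomal proteins, spanned only 14.01 to 14.09 in LSK-Control. In LSK-Dot it was 14.00 to 14.13 on 5 arrays and 12.26 on K1272. Its difference of -0.26 ± 0.27 (adjusted p = 0.985) became 0.04 without that array. Fbl (fibrillarin), the methyltransferase of the box C/D snoRNP, had 10.13, 10.69 and 10.90 in LSK-Control and 9.57, 11.14 and 11.41 in LSK-Dot, a difference of 0.20 ± 0.27 (adjusted p = 0.985). Here 4 deleted arrays lay above every control, while K1359 was the lowest and K1272, at 10.29, fell within the control range.

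By role, the 4 RNA polymerase I subunits Polr1a, Polr1b, Polr1c and Polr1e all had positive log2 fold changes in LSK, from 0.05 to 0.63. Polr1b, the second-largest subunit, was at 5.43 to 6.32 in LSK-Control and at 5.18 to 7.77 in LSK-Dot, with a difference of 0.63 ± 0.44 (adjusted p = 0.985). Among the 10 factors of the small subunit, 8 were higher, with a range from -0.80 for Tsr1 to 0.77 for Rrp12. Among the 12 factors of the large subunit, 9 were higher, from -0.44 for Nop2 to 0.67 for Grwd1. The other roles were mixed, with 1 of 3 box C/D proteins, 1 of 3 box H/ACA proteins, 3 of 7 nucleolar proteins such as Nolc1, Tcof1 and Gnl3, and 1 of 3 growth enzymes higher.

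**Figure D2:**
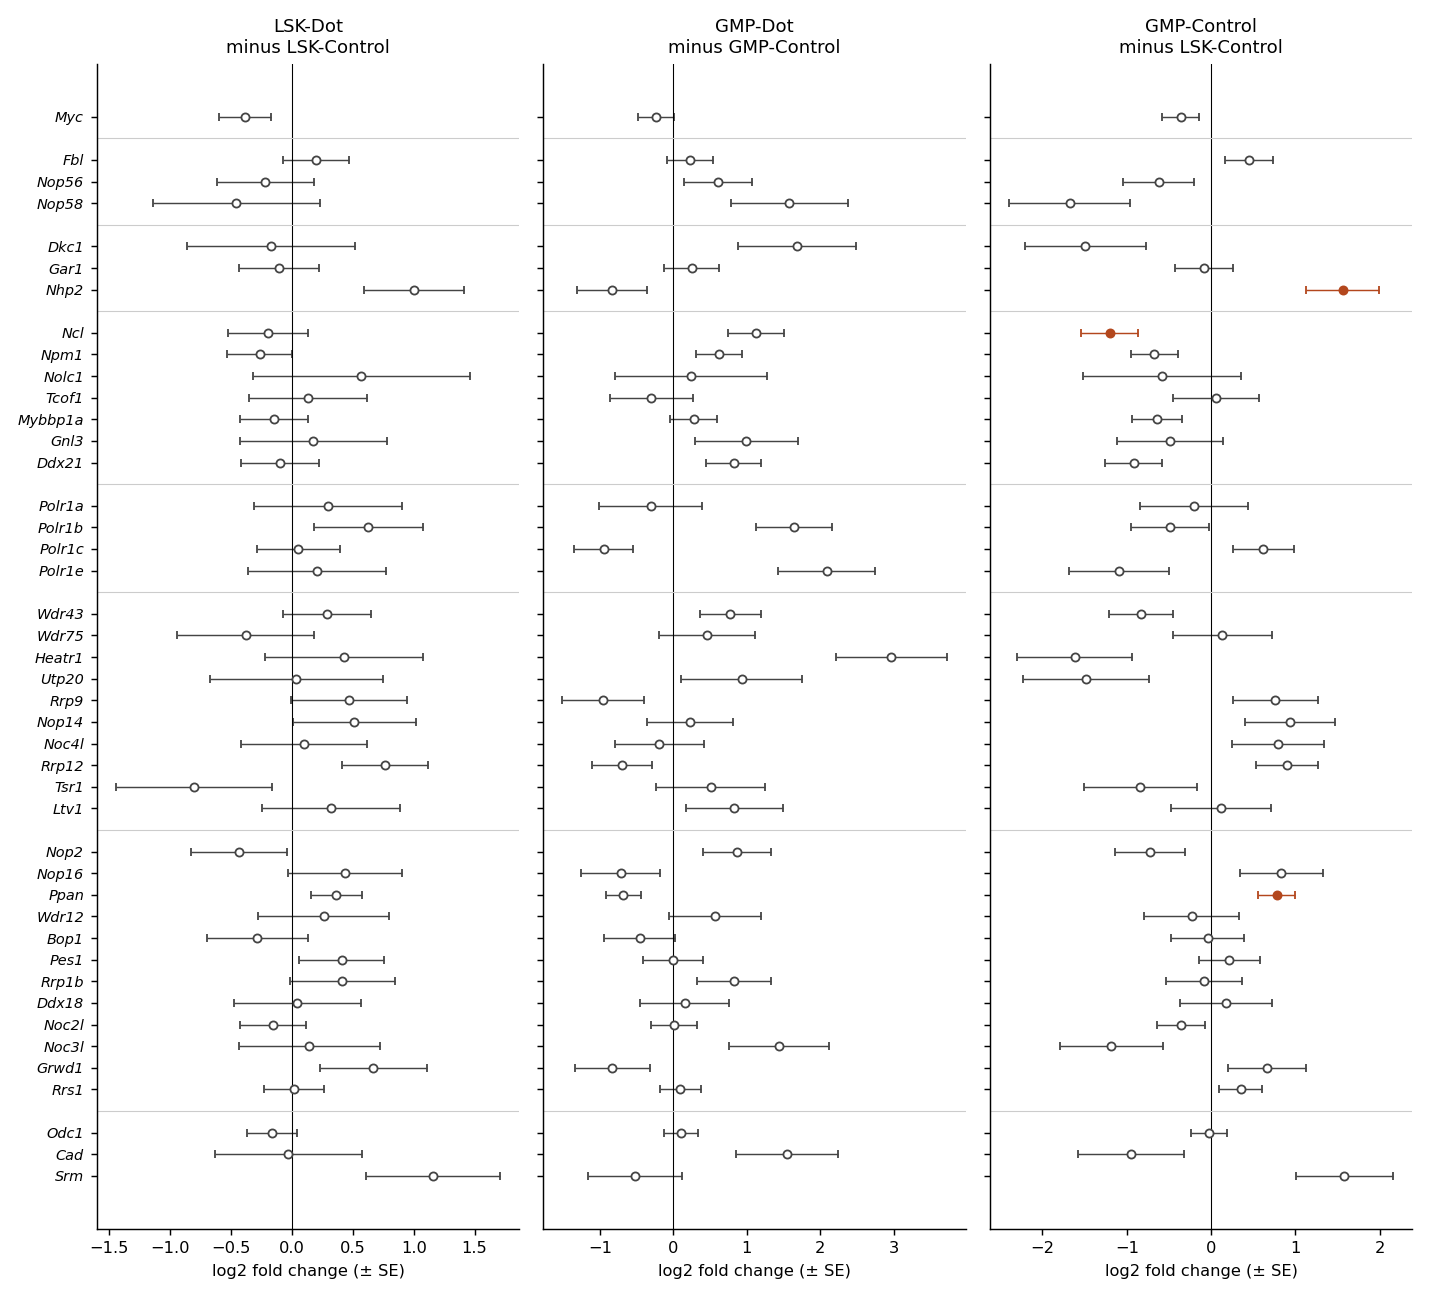
Each circle is the log2 fold change of 1 member and the bar its standard error, for the comparisons LSK-Dot minus LSK-Control, GMP-Dot minus GMP-Control and GMP-Control minus LSK-Control. Grey lines separate the roles, from the top: Myc, box C/D proteins, box H/ACA proteins, nucleolar proteins, RNA polymerase I, small subunit factors, large subunit factors and growth enzymes. Filled circles passed an adjusted p of 0.05, which 3 members did, all between the control groups.

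In GMP 29 of 43 members were higher after deletion, with the largest differences for Heatr1, Polr1e, Dkc1 and Polr1b, but none passed the test. The mean over the 43 members was 8.56, 9.57, 8.96, 9.39 and 9.39 on GMP-Control K1601, K1602, K1603, K1604 and K1581, and 9.75, 9.83, 9.09 and 9.59 on GMP-Dot K1190, K1272, K1359 and K1421. The groups overlapped, since K1359 lay below 3 of the 5 controls. With limma, 0 of 43 members passed the adjusted p, where 0.143% of all genes did. The members' median was 0.25, against -0.20 over all genes, of which 34.3% were higher. At an unadjusted p under 0.05 there were 8 members higher and 2 lower, where 5.72% of all genes were higher and 8.23% lower at that level. Set against only the 9097 genes above the median level, whose median was 0.00, the members' median stayed at 0.25. Averaging the close pair K1190 and K1272 gave a median of 0.20 with 28 higher and 0 passing. Without LSK-Dot K1272, 2 members passed (Heatr1 and Ncl), where 2.14% of all genes did, and with array weights estimated gene by gene 17 passed (39.5%), 15 of them higher. In that weighted fit 39.3% of all genes passed, 10.5% as higher and 28.8% as lower. Its weights were 8.89 and 2.32 for GMP-Dot K1190 and K1272, and 0.25 and 0.30 for K1359 and K1421. The GMP-Dot mean of that fit thus rested mainly on the close pair.

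Heatr1, a small subunit processome protein that is also needed for RNA polymerase I transcription, had the smallest p. Its log2 level was 4.54, 6.85, 5.43, 5.30 and 6.30 in GMP-Control and 8.94, 8.34, 6.87 and 10.48 in GMP-Dot. Every deleted array lay above every control, although K1359 at 6.87 and control K1602 at 6.85 nearly met. The log2 fold change was 2.97 ± 0.75 with a limma adjusted p of 0.129. The adjusted p was 0.0417 without LSK-Dot K1272, which enters through the shared variance alone, 0.0382 without GMP-Dot K1359, and 0.279 with the close pair averaged. Over 35 alternatives it ran from 0.00169, with the gene-by-gene weights, to 0.337 and passed in 4. Its 2 other probe sets had differences of 1.33 and 0.35.

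Ncl was at 11.97, 12.07, 11.70, 11.28 and 12.25 in GMP-Control and at 13.16, 13.46, 12.41 and 12.91 in GMP-Dot. The groups did not overlap, and the difference was 1.13 ± 0.38 (adjusted p = 0.228, limma). The adjusted p was 0.028 without LSK-Dot K1272. Over 35 alternatives it ran from 0.000527, with the gene-by-gene weights, to 0.531. The 4 other Ncl probe sets had differences of 1.51, 0.94, 1.18 and 0.41. In LSK-Control and GMP-Dot the mean Ncl levels were 13.06 ± 0.39 (SD, n = 6) and 12.98 ± 0.44 (n = 4).

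Polr1e, a subunit of the initiating form of RNA polymerase I, was at 4.76, 6.92, 3.96, 6.90 and 5.46 in GMP-Control and at 7.22, 7.24, 7.71 and 8.60 in GMP-Dot. It was the last of the 3 members whose groups did not overlap. These 3, all higher, are 6.98% of members, where 4.78% of all genes had no overlap and 1.81% had none and were higher. The Polr1e difference was 2.09 ± 0.66 with an adjusted p of 0.205, and its dimmer probe set gave 2.30. Polr1b was at 5.45, 6.72, 3.92, 4.51 and 6.02 in GMP-Control and at 6.60, 6.79, 6.90 and 7.56 in GMP-Dot. Control K1602 lay within the deleted range, and the difference was 1.64 ± 0.52 (adjusted p = 0.205). The other 2 subunits measured did not share this direction. Polr1c, which RNA polymerases I and III have in common, had a difference of -0.95 ± 0.40 (adjusted p = 0.312), and Polr1a, the largest subunit, one of -0.31 ± 0.71 (adjusted p = 0.831).

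Npm1 was at 13.30, 13.95, 12.83, 13.27 and 13.47 in GMP-Control and at 14.09, 14.12, 13.91 and 13.81 in GMP-Dot. Only control K1602 reached into the deleted range, and the difference was 0.62 ± 0.31 (adjusted p = 0.375, limma). Fbl was at 10.73, 11.29, 11.13, 11.45 and 10.75 against 11.21, 11.52, 11.19 and 11.30, a difference of 0.23 ± 0.31 (adjusted p = 0.706) with wide overlap. Myc was at 10.96, 11.08, 11.60, 11.41 and 11.81 in GMP-Control and at 11.02, 11.18, 11.27 and 11.07 in GMP-Dot. The deleted arrays lay inside the control range, and the difference was -0.24 ± 0.25 (adjusted p = 0.627).

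Some members lay on the other side. Ppan, needed for maturation of the large subunit, was at 8.39, 8.56, 9.0, 8.75 and 8.68 in GMP-Control and at 7.69, 7.86, 8.41 and 8.01 in GMP-Dot, a difference of -0.68 ± 0.24 (adjusted p = 0.248, limma). Only K1359 overlapped the controls. Nhp2, Rrp9, Rrp12, Grwd1, Nop16, Bop1, Srm, Noc4l and Tcof1 also had negative values, between -0.96 for Rrp9 and -0.19 for Noc4l, and Pes1 was at -0.01. By role, all 3 box C/D proteins, 2 of 3 box H/ACA proteins, 6 of 7 nucleolar proteins, 7 of 10 small subunit factors, 7 of 12 large subunit factors and 2 of 3 growth enzymes were higher in GMP-Dot. The other 4 members with an unadjusted p under 0.05 were Cad, which starts pyrimidine synthesis (1.55 ± 0.70), the nucleolar RNA helicase Ddx21 (0.82 ± 0.37), Noc3l, a large subunit factor (1.44 ± 0.68), and Dkc1, the pseudouridine synthase of the box H/ACA snoRNP (1.68 ± 0.80). Their adjusted p-values were 0.338 to 0.356.

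**Figure D3:**
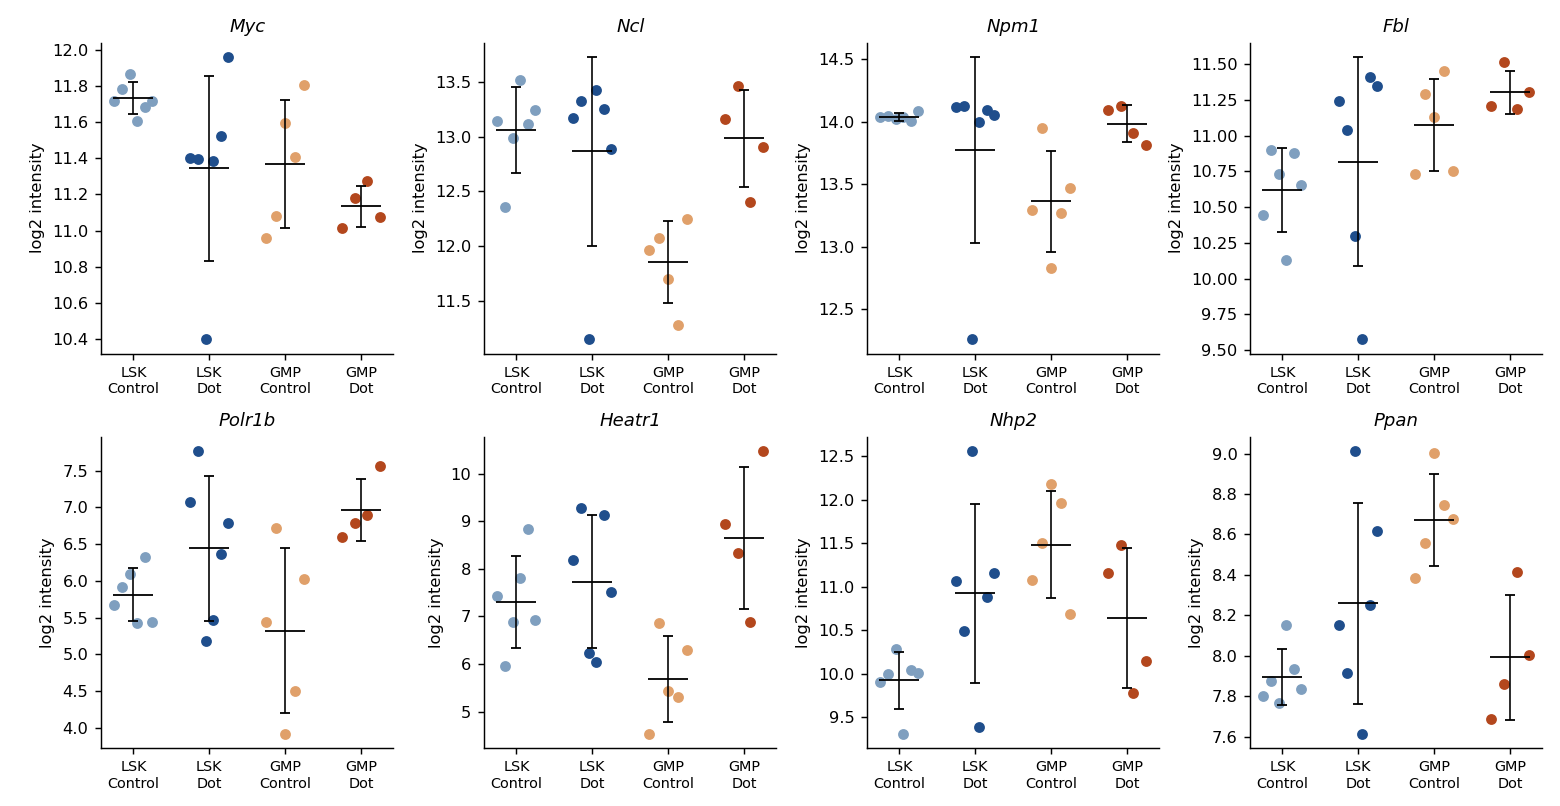
Log2 intensity of Myc, Ncl, Npm1, Fbl, Polr1b, Heatr1, Nhp2 and Ppan on each of the 21 arrays (points), with the group mean (long dash) and SD (bar). In GMP every deleted array of Ncl and Heatr1 lies above every control array, and Ncl runs from 11.28 to 12.25 in GMP-Control and from 12.41 to 13.46 in GMP-Dot.

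Markers of the cell cycle and of some other cells also differed between the genotypes in GMP. The 17 mitosis genes had means of 7.11 to 7.90 on GMP-Control arrays and of 8.86, 8.69, 7.50 and 8.71 on GMP-Dot K1190, K1272, K1359 and K1421, so the array with the lowest members among the deleted ones was also the lowest in mitosis genes. Of these genes, 13 of 17 were higher in GMP-Dot, and 0 passed the adjusted p. The mean of 8 B cell markers was 5.40 to 5.94 in GMP-Control and 4.61 to 5.14 in GMP-Dot, and only 2 of the 8 lay above the median gene in either group. The mean of 10 mature neutrophil markers was 7.32 to 7.85 in GMP-Control and 6.45 to 7.25 in GMP-Dot, again without overlap, with 8 of 10 lower. T and NK cell markers had group means of 5.06 and 4.75, with 8 of 8 lower and 1 of the 8 above the median gene, and the arrays of both groups overlapped. The median differences were 0.79 for mitosis genes, -0.53 for B cell, -0.62 for mature neutrophil and -0.27 for T and NK cell markers. Over all genes the median was -0.20 and 34.3% were higher, so the T and NK cell median was close to that of all genes. None of these markers passed the adjusted p. The part of these in the members' levels was not tested.

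The effects of deletion in the 2 cell types were compared through their difference, GMP minus LSK. With limma, 0 members passed the adjusted p, where 0.033% of all genes did, and 9 members had an unadjusted p under 0.05, where 13.6% of all genes had. The median over the members was 0.31, with 28 positive, against -0.26 over all genes. Without LSK-Dot K1272 it was 0.04, with 22 positive. The smallest p-values belonged to Ppan at -1.05 ± 0.32 (adjusted p = 0.23), Nhp2 at -1.84 ± 0.63 (adjusted p = 0.271) and Rrp12 at -1.47 ± 0.54 (adjusted p = 0.299). Each was positive in LSK and negative in GMP. For Rrp12 all 6 LSK-Dot arrays lay above the LSK-Control mean and all 4 GMP-Dot arrays below the GMP-Control mean. Ncl had a difference of effects of 1.32 ± 0.50 (adjusted p = 0.309), Npm1 of 0.88 ± 0.41 (0.359), Polr1b of 1.01 ± 0.68 (0.453), Myc of 0.15 ± 0.33 (0.803) and Fbl of 0.03 ± 0.42 (0.967).

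Between the control groups, GMP minus LSK, 3 of 43 members passed the adjusted p (6.98%), where 12% of all genes did, 7.03% as higher and 4.95% as lower in GMP-Control. The share of members is not above that of all genes. Nhp2 was higher in GMP-Control, at 11.07, 11.50, 12.18, 11.97 and 10.69, against 9.31 to 10.28 in LSK-Control, and the groups did not overlap. The difference was 1.56 ± 0.43 with a limma adjusted p of 0.0259. Ppan was higher by 0.78 ± 0.22 (adjusted p = 0.0286), at 8.39 to 9.0 against 7.77 to 8.15, again without overlap. Ncl fell by 1.20 on the log2 scale (SE 0.34, adjusted p = 0.0293), from 12.35 to 13.52 in LSK-Control to 11.28 to 12.25 in GMP-Control. Npm1 was the last of the 4 members without overlap, at -0.67 ± 0.28 with an adjusted p of 0.107. These 4 are 9.3% of members, against 14.7% of all genes.

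The remaining members were divided, with 17 of 43 higher in GMP-Control in all and a median of -0.20, against 0.29 over all genes and -0.07 over genes above the median level. Of the named members that did not pass, Fbl had 0.45 ± 0.28 (adjusted p = 0.248), Polr1b -0.49 ± 0.47 (0.438) and Myc -0.36 ± 0.22 (0.241). The lowest value was -1.68 for Nop58, a box C/D core protein, and the highest 1.58 for Srm. The number that passed was 0 without GMP-Control K1603, without GMP-Control K1604 or without LSK-Control K1601, 1 without LSK-Control K1604 or K1553, 6 without GMP-Control K1601, and 9 without LSK-Dot K1272, where 30.4% of all genes passed. None of the 3 passed once each array's upper quartile was a term of the fit.

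Between the Dot1l-deleted groups, GMP-Dot minus LSK-Dot, 0 members passed with limma, where 0.143% of all genes did, and 0 had an unadjusted p under 0.05, where 7.28% of all genes had. The groups overlapped for every member, while 2.03% of all genes had no overlap. The median was 0.12 with 25 higher, and -0.17 with 14 higher without LSK-Dot K1272. Grwd1, a histone and ribosome assembly factor, had the smallest p at -0.84 ± 0.49 (adjusted p = 0.844), followed by Fbl at 0.49 ± 0.30 (0.894) and Rrs1, a large subunit factor, at 0.43 ± 0.27 (0.898). Ncl had 0.12 ± 0.37, Npm1 0.21 ± 0.30, Polr1b 0.52 ± 0.50 and Myc -0.21 ± 0.24, each with an adjusted p of 1.

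The shift of the members was then set against the upper quartile of each array, a measure of how bright its brighter probe sets are. The difference in the upper quartile between genotypes was within the spread of the arrays: LSK-Dot minus LSK-Control was -0.04 (exact two-sided permutation p = 0.924, n = 6 and 6) and GMP-Dot minus GMP-Control was 0.17 (exact two-sided permutation p = 0.254, n = 4 and 5). Without LSK-Dot K1272 the LSK difference was 0.05 (exact permutation p = 0.156). Within groups, however, arrays with a higher upper quartile tended to have higher members, though arrays alike in it could differ. LSK-Dot K1359 and K1091 both had an upper quartile of 6.70, with member means of 9.04 and 9.87. GMP-Dot K1359 and K1421 had upper quartiles of 6.27 and 6.31, with member means of 9.09 and 9.59. The slope of the member mean on the upper quartile, with each group given its own mean, was 2.05 log2 units per log2 unit over 21 arrays, and 1.52 without LSK-Dot K1272.

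Gene by gene, limma with group means and a common slope called 24 of 43 members (55.8%), 23 with a positive slope and 1, Ppan, with a negative one. Over all genes 55.5% were called, but 17.3% with a positive and 38.1% with a negative slope. Among genes above the median level, tested alone, 41.6% were called, 29.8% positive, and there 19 members were called, all positive. The median slope of the members was 2.07, against -0.65 over all genes and 1.29 over the genes above the median level. The members' probe sets are themselves among those of the upper quartile, and leaving them out of it also gave 24 calls. Without LSK-Dot K1272, 9 members were called, all of them among the 24, where 29.2% of all genes were called and 6.13% as positive. These 9 are Mybbp1a, Nop16, Nop56, Npm1, Polr1a, Rrp12, Tcof1, Utp20 and Wdr43.

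The smallest p-values for this slope belonged to Nop16, a large subunit factor (4.11 ± 0.53, adjusted p = 2.63e-05), Nop56, a box C/D core protein (3.26 ± 0.53, adjusted p = 0.000115), Polr1a (4.99 ± 0.84, adjusted p = 0.000157) and Utp20, a small subunit processome protein (5.58 ± 1.07, adjusted p = 0.000418). The first of these varied widely within groups. In GMP-Control, Nop16 was at 8.17 and 8.51 on K1602 and K1604, whose upper quartiles are the highest of that group, and at 6.62, 6.26 and 7.23 on K1601, K1603 and K1581. In GMP-Dot it was at 7.31 and 7.88 on K1190 and K1272 and at 5.72 and 5.63 on K1359 and K1421, whose upper quartiles are the lower ones. All 7 nucleolar proteins with Ncl and Npm1 among them passed, as did 2 of 3 box C/D proteins, 2 of 3 box H/ACA proteins, 2 of 4 polymerase subunits, 5 of 10 small subunit factors, 5 of 12 large subunit factors (4 of them positive) and 1 of 3 growth enzymes. Myc did not (0.82 ± 0.42, adjusted p = 0.105).

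With the upper quartile as a covariate, the members' median in GMP-Dot against GMP-Control was -0.08 with 18 of 43 higher, close to the -0.07 of all genes, where it had been 0.25 with 29 higher. Nop16 was called in this fit, as lower in GMP-Dot, at -1.42 ± 0.28 with an adjusted p of 0.0443, where 0.198% of all genes were called. With LSK-Dot K1272 also left out, the members' median was 0.12 with 24 higher, against -0.09 over all genes, of which 41.2% were higher. Without the covariate, quantile normalization of the deposited values gave a GMP median of 0.22 with 28 higher, against -0.16 over all genes. Centring each array on its upper quartile gave a GMP median of 0.08 with 25 higher, against -0.37 over all genes. With all 21 arrays and the covariate, Heatr1 had 2.53 ± 0.76 (adjusted p = 0.186), Polr1e 1.67 ± 0.65 (0.31), Polr1b 1.35 ± 0.52 (0.303) and Ncl 0.74 ± 0.29 (0.31), while Npm1 had 0.28 ± 0.21 (0.661). In LSK the covariate gave a median of 0.23 with 29 higher, against 0.03 over all genes, of which 54.8% were higher. Between the control groups it turned the median from -0.20 to 0.45 with 31 of 43 higher in GMP-Control. Over all genes that median was 0.01 with the covariate, and 51.3% were higher. There Nhp2 (1.44 ± 0.54, adjusted p = 0.156), Ppan (0.42 ± 0.21, 0.311) and Ncl (-0.46 ± 0.30, 0.448) no longer passed, while Nop16 (2.19 ± 0.30, 0.00148) and Rrp12 (1.62 ± 0.36, 0.0191) did, and 3.26% of all genes were called. With LSK-Dot K1272 also left out, Nhp2 passed again at 2.23 ± 0.45 (adjusted p = 0.0113). The upper quartile was lower in GMP-Control than in LSK-Control (6.35 ± 0.16, SD, n = 5, against 6.68 ± 0.07, n = 6).

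**Figure D4:**
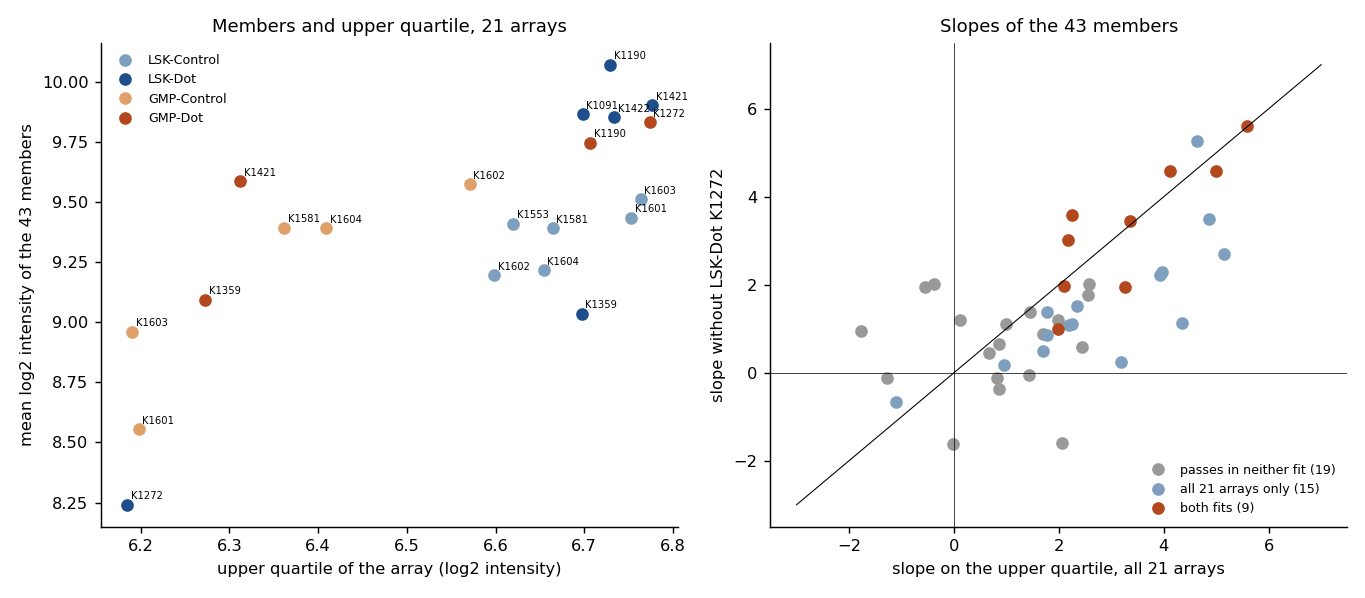
Left, the mean log2 intensity of the 43 members against the upper quartile of the array, 1 point for each of 21 arrays, coloured by group and labelled with the K number. Right, the slope of each member on the upper quartile with all 21 arrays (horizontal) and without LSK-Dot K1272 (vertical), with the diagonal drawn. LSK-Dot K1272 lies at the lower left with a member mean of 8.24, and 9 members passed in both fits.

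Myc was used in the same way, as a covariate within groups over the other 42 members. Limma called 3 of them (7.14%), all positive, where 2.68% of all genes were called and 1.78% as positive, and 36 of 42 slopes were positive with a median of 0.81. The called ones were Noc4l, a small subunit factor (2.05 ± 0.48, adjusted p = 0.0411), Dkc1 (2.67 ± 0.65, 0.0411) and Wdr75, a small subunit processome protein (2.06 ± 0.55, 0.0499), and Ddx18, an RNA helicase, came next (1.91 ± 0.51, 0.0504). With probe sets of the _s_at, _x_at and _a_at kinds left out where another exists, the slope turned to -0.25 for Noc4l and -0.67 for Wdr75. On LSK-Dot K1272, where Myc was lowest at 10.40, Noc4l was at 7.20, Dkc1 at 6.03 and Wdr75 at 5.32, each the lowest of its 21 values. Without that array 0 members were called, where 0.0% of all genes were, the median slope was 0.01 and 22 of 42 were positive. The number called was also 0 without any one of 9 other arrays (LSK-Control K1601, K1603, K1604, K1581 and K1553, LSK-Dot K1091, K1190 and K1421, and GMP-Dot K1272), with the smallest adjusted p between 0.0503 and 0.0688, and 13 or 15 without GMP-Control K1602 or K1603. In each of these other fits the median slope was between 0.80 and 0.94, so the size of the slope rests on LSK-Dot K1272 while the count lies close to the threshold. No member was called either when the upper quartile stood beside Myc in the fit.

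Genes of the same pathway outside the members gave a wider view. In GMP-Dot against GMP-Control, 39 of 48 other large subunit factors were higher with a median of 0.41, as were 32 of 47 other small subunit factors (median 0.43), 7 of 11 other genes of the RNA polymerase I machinery (0.12) and 12 of 21 of the RNA polymerase III machinery (0.10), against -0.20 over all genes. None of these passed the adjusted p with limma, and at an unadjusted p under 0.05 there were 6 higher and 3 lower, 3 and 2, 2 and 0, and 3 and 0 in that order. Over all genes 0.143% passed, and 5.72% were higher and 8.23% lower at an unadjusted p under 0.05. Mak16, a large subunit factor, was at 1.76 ± 0.39 with an adjusted p of 0.0907, and Nop53, another one, at -1.19 ± 0.29 with 0.105. Ddx52 and Dnttip2, of the small subunit list, were at 1.71 ± 0.61 and 2.10 ± 0.75, both with 0.246. Polr3f, a subunit of RNA polymerase III, was at 2.16 ± 0.67 with 0.196.

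The ribosomal proteins themselves had a median near that of all genes, but a smaller share of them was higher. Of 29 measured genes of cytosolic ribosomal proteins, 5 were higher in GMP-Dot, where 34.3% of all genes were. Their median was -0.18, against -0.20 over all genes and 0.00 over genes above the median level. At an unadjusted p under 0.05 there were 4, all lower, where 8.23% of all genes were lower at that level. Rpl37 was at -0.62 ± 0.25 (adjusted p = 0.303, limma) and Rps15 at -0.55 ± 0.26 (0.349). Other MYC growth targets were split, with 19 of 38 higher. Of 19 MYC network partners 10 were higher, with a median of 0.13. At an unadjusted p under 0.05, 2 of them were higher and 3 lower, where 5.72% and 8.23% of all genes were. The partners of smallest p, Mxd3 and Mxd4, which compete with MYC for its partner MAX, were at -1.30 ± 0.42 (0.212) and -1.47 ± 0.51 (0.238). Of 13 p53 targets that respond to ribosome stress, Mdm2, which degrades p53, was at 2.46 ± 0.63 (0.133) and 5 of 13 were higher.

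In LSK-Dot against LSK-Control, where the median of all genes was 0.06 and 58.4% were higher, the same lists were mixed: 25 of 48 other large subunit factors (median 0.05), 22 of 47 small subunit factors (-0.07), 4 of 11 RNA polymerase I genes (-0.33), 9 of 21 RNA polymerase III genes (-0.04), 18 of 29 ribosomal proteins (0.04) and 25 of 38 MYC growth targets (0.16) were higher, and 0 passed. Shmt2, a mitochondrial enzyme of one-carbon metabolism among the MYC growth targets, was at 1.01 ± 0.17 with a limma adjusted p of 0.0769, the smallest of these lists. It had -0.41 ± 0.20 (0.355) in GMP, and the difference of effects of -1.43 ± 0.26 had an adjusted p of 0.0525. Nme1, a nucleoside diphosphate kinase, had 1.14 ± 0.30 (0.293) in LSK.

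Between the control groups these lists held called genes in both directions. Shmt2 (0.78 ± 0.18, adjusted p = 0.00886) and Nme1 (1.70 ± 0.31, 0.00228) were higher in GMP-Control, as were Nop10, a box H/ACA snoRNP protein (1.84 ± 0.39, 0.00621), and Rps27 (1.32 ± 0.35, 0.0197). Gnl2, a nucleolar GTPase of the large subunit (-1.66 ± 0.36, 0.00707), Utp14b (-3.57 ± 0.82, 0.00989) and Ubtf, which binds ribosomal DNA for RNA polymerase I (-1.59 ± 0.45, 0.0289), were lower. In all, 3 of 48 other large subunit factors, 4 of 47 small subunit factors, 2 of 11 RNA polymerase I genes, 0 of 21 RNA polymerase III genes, 3 of 29 ribosomal proteins, 4 of 38 MYC growth targets, 1 of 19 MYC network partners and 2 of 13 p53 targets passed, where 12% of all genes did. The p53 targets were Trp53inp1 (-3.42 ± 0.59, adjusted p = 0.0013) and Mdm2 (-3.19 ± 0.57, 0.0016).

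The slope on the upper quartile was positive for most assembly factors on these lists, but not for ribosomal proteins. Over all genes 17.3% were called as positive and 38.1% as negative. Of other large subunit factors 30 of 48 were called with a positive slope and 2 with a negative one, and of small subunit factors 25 of 47 and 0. Other RNA polymerase I genes had 4 of 11 and 0 with a median slope of 1.61. RNA polymerase III genes had 7 of 21 and 2, MYC growth targets 18 of 38 and 1, and ribosomal proteins 6 of 29 and 5. MYC network partners had 5 of 19 and 5, and p53 targets of ribosome stress 4 of 13 and 4. The median slopes, polymerase I apart, were 2.87, 2.61, 1.91, 1.81, -0.12, 0.54 and 1.93 in that order, and the mitosis genes had 2.36 with 8 of 17 called, all positive.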

How the data were processed

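Total RNA (100 ng) from each sorted sample was labelled and hybridised to an Affymetrix array, per the labels' protocols. The authors deposited 1 linear intensity per probe set and array. RMA, which subtracts background, equalises array distributions and summarises probes, is named in the submitters' processing notes with no version, and the sources used here name no genome build. The platform annotation pairs 34958 of 45101 probe sets with a single gene symbol, 932 with several and 9211 with none, and only the first kind was used. Log2 was taken with no pseudocount and no filter on low values. The deposited values did not have equal distributions on all arrays. Median intensities were 25.19 to 31.48 per array, and upper quartiles ran from 6.18 to 6.78 on the log2 scale. The number of arrays limits the precision, since sequencing depth does not apply. Differences came from limma 3.58.1 in R 4.3.3 (4 group means over 21 arrays, moderated variance), with Benjamini-Hochberg adjustment over 18194 genes and a threshold of 0.05, tested on simulated data. The slopes added the upper quartile or Myc to the same model. The upper quartile was compared with an exact permutation test (SciPy 1.17.1).

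The members and all gene lists were chosen with earlier results of these data known. The text names Myc, Ncl, Npm1, Fbl and Polr1b in each comparison, then the members of smallest p, and for other lists the genes of smallest p. Alternatives changed scaling, filter, probe set choice, weights, block, covariate and arrays. Gene-by-gene weights, and the covariate with LSK-Dot K1272 left out, were added after seeing the data.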

Additional observations from a re-analysis of the deposited data

Results flagged for a closer look

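A level is given here where 1 array lay far from the rest of its group by Dixon's gap test, which flags about 1 in 20 groups by chance. Of 92 groups tested, 13 met it, and 10 of these were on LSK-Dot K1272. On that array the log2 level was low for Dkc1 (6.03), Myc (10.4), Ncl (11.15), Noc4l (7.2), Nop16 (5.39), Nop56 (9.09), Npm1 (12.26), Rrs1 (10.38) and Wdr75 (5.32), and its upper quartile of 6.18 was low too. The other 3 were Ddx18 on GMP-Dot K1359 (10.73, high), Grwd1 on LSK-Control K1604 (8.11, low) and Polr1a on GMP-Control K1601 (5.89, low). Rrp12 is given because every deleted LSK array lay above the LSK-Control mean and every deleted GMP array below the GMP-Control mean. The difference of effects was -1.47, and its test in limma gave an adjusted p of 0.299.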

How the results depend on the processing

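The members' medians moved by less than the spread between arrays in 171 of 174 alternatives. That spread was the pooled SD of the member means of the compared groups, and the SD of LSK-Dot was 0.71. A median could therefore change sign and still count as kept. With the covariate it did so in GMP (0.25 to -0.08) and for the difference of effects (0.31 to -0.10). Without LSK-Dot K1272 it did so between the deleted groups (0.12 to -0.17). The alternatives beyond the spread were between the control groups. There the median of -0.20 became 0.45 with the upper quartile as a covariate, 0.28 with LSK-Dot K1272 left out as well, and 0.13 with arrays centred on the upper quartile. The count of members called in GMP-Dot against GMP-Control, 0 in the report, was 1 with the covariate, also without LSK-Dot K1272, 8 with array quality weights and 17 with weights estimated gene by gene. For the difference of effects it was 2 and 3 with the weights and 1 with the covariate and K1272 left out, and between the deleted groups 1 with gene-by-gene weights. Between the control groups, 3 became 6 when centred on the upper quartile or with the mean of all probe sets of a gene, 9 and 7 with the weights, 8 with the compared groups alone and 5 at an adjusted p under 0.1. The slope on the upper quartile gave 8 in place of 24 with array weights. That on Myc gave 5 among genes above the median level, 1 with the mean of probe sets, 1 without _s_at, _x_at and _a_at probe sets, and 0 with array weights or with the upper quartile beside Myc. The first array weights stopped before they converged. Signs turned for Ncl in LSK (0.0964 and 0.0952 with the weights, 0.0930 with the covariate and K1272 left out) and Npm1 (0.0464 and 0.0458 with the weights). For the difference of effects, in the order covariate, centring, weights, gene-by-gene weights, covariate without K1272, Myc had -0.0197, -0.0578, -0.0240, -0.1445 and -0.0229, and Fbl -0.147, -0.1758, -0.1179, -0.3105 and -0.1477, with -0.2592 from the mean of probe sets. Polr1b between control groups was 0.0675 with the covariate. Between deleted groups, gene-by-gene weights gave -0.0632 for Rrs1 and -0.1946 for Polr1b, and array weights -0.0009 for Npm1. Without _s_at, _x_at and _a_at probe sets the slope on Myc was -0.2475 for Noc4l and -0.674 for Wdr75. The cause of these moves was not tested. Leaving out 1 array at a time, members called ranged from 0 to 2 in GMP, 0 to 9 between control groups, 9 to 25 for the upper quartile and 0 to 15 for Myc, and 0 to 0 in the other 3 comparisons. The medians ranged from -0.01 to 0.34 in LSK, 0.12 to 0.43 in GMP, 0.04 to 0.47 for the difference, -0.30 to 0.004 between control and -0.17 to 0.29 between deleted groups. Ncl in LSK ranged from -0.34 to 0.15, Npm1 from -0.33 to 0.0401, the Myc difference of effects from -0.0377 to 0.28, that of Fbl from -0.22 to 0.15, and between deleted groups Ncl from -0.23 to 0.31 and Npm1 from -0.0948 to 0.28. The LSK difference in the upper quartile was 0.0513 without K1272. LSK and GMP arrays share K numbers, but same-numbered arrays did not deviate together: the correlations of deviations ran from -0.40 to 0.27. With the K number as a replicate block, 0 members were called between the control groups, and 0, 0, 0, 24 and 3 in LSK, GMP, the difference, the upper quartile slope and the Myc slope.

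The arrays number 4 to 6 in a group, LSK-Dot K1272 stands apart, and GMP-Dot K1190 and K1272 lie close together, so differences between genotypes rest on few arrays. Brightness on an array is not an absolute amount of RNA: the upper quartile moves with most bright genes, and a shift of all ribosome genes together cannot be told apart from a shift of the array. Gene names are those of the platform annotation, and the other probe sets of a member had the same sign in 26 of 48 cases in LSK and 42 of 48 in GMP.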
